A study of Mus musculus with 2 samples.

Results

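The regions described here are clusters of array probes at the distal ends of 17 mouse autosomes, all autosomes but chromosomes 7 and 15. Probes whose starts lay at most 500 bp apart formed a region of at least 2 probes, and a region was taken as subtelomeric when it started within 2 Mb of the most distal probe of its chromosome. The rule used probe positions and dropped spots with outlier flags, and used no signal or ratio. It gave 344 distal regions with 1590 probes, out of 19365 regions on the array, and 3885 regions lying 2 to 20 Mb from the same distal probe served for comparison. The study raised female FVB/NJ mice in litters reduced to 4 pups (SL, early postnatal overnutrition) or in control litters of 9 pups (C) and took the hypothalamus at postnatal day 180. No transgene or drug is named in the labels for either group. DNA of 5 hypothalami was pooled, with 2 pools and thus 10 hypothalami a group, so no single animal is resolved, and SL and C were hybridised together on 2 arrays with exchanged dyes. SL carried Cy5 on array 1 and Cy3 on array 2. The hypothalamus governs feeding and energy use, but it is a mixture of neurons and glia. DNA signals hold no defining markers of cell types, so the labelled tissue could not be checked.

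Mouse chromosomes carry their centromere close to one end, and genome positions count from there, so the highest positions lie toward the telomere of the long arm. Telomeres are repeats capped by shelterin proteins, and the DNA next to them can be packed into silent chromatin and methylated by DNMT3A and DNMT3B. CpG islands are short stretches rich in CpG that mostly overlap gene promoters and are mostly free of methylation in somatic tissue, and the methylated ones are often silent. The assay cuts the site CCCGGG first with SmaI, which is blocked by methylation and leaves blunt ends, and then with XmaI, which opens the methylated sites with overhangs that take up an adaptor. A fragment amplified by PCR, and hence a bright probe, therefore requires methylated sites at both of its ends. Brightness also follows fragment length, site density and probe sequence, and it is not a methylation percentage. Positions are on build mm8, for which no genome or annotation was used here, so genes are not named and no sequence is shown. Whether a given cluster meets a definition of a CpG island was not tested.

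Signal stood well above background over the whole array, with 94.6% to 95.9% of 90482 distinct genomic probes called well above background per channel and no saturated genomic spot. Of 33 chromosome Y probes 39.4% to 45.5% were above background in these female pools. In the distal regions 95.7% to 96.7% of probes were above background per channel, against 95.4% to 96.5% in the comparison regions. The sources used here do not say which pool went onto which array. The arrays are taken as 2 replicates, and the spread between them may be technical. An exact two-sided sign-flip test over 2 arrays cannot give p below 0.5.

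The distal regions were unevenly spread over the chromosomes. Chromosome 4 held 76 of them and chromosome 11 held 64, together 40.7% of all, followed by chromosome 2 with 40. Chromosome 19 had 22, chromosomes 9 and 14 had 20 each, and chromosome 10 had 19. At the other extreme chromosomes 3, 18, 13 and 17 had 6, 4, 3 and 2 distal regions, and chromosome 1 had a single one. The density was 10.1 regions per Mb in the distal 2 Mb and 12.7 per Mb between 2 and 20 Mb, and it was lower distally on 11 of 17 chromosomes. Chromosome 4 went the other way, with 38.0 against 26.8 regions per Mb, and so did chromosomes 2, 11, 14 and 16. On chromosome 14 the values were 10.0 and 2.94. The most distal 0.5 Mb held 61 regions, or 7.18 per Mb. The median number of probes was 4 in both sets, and the median length 591 bp distally against 564 bp. Just 2 probes made up 55 distal regions. The region just inside the 2 Mb limit, on chromosome 4 at 153032892 to 153033080, had C signals of 10066 and 10014 on arrays 1 and 2. The region just outside, on chromosome 10 at 127795433 to 127795896, had C signals of 20390 and 14761.

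Distal regions were dimmer than the regions 2 to 20 Mb inward in all 4 channels. Signal here is the geometric mean over a region's probes of the deposited processed intensity, which is background-subtracted and dye-normalised. The median SL signal of the distal regions was 1793 on array 1 and 1203 on array 2, against 2518 and 1649 in the comparison regions. The median C signal was 2031 and 1305, against 2599 and 1690. On the log2 scale the difference of medians was -0.47 ± 0.02 in SL and -0.36 ± 0.01 in C (SD, n = 2 arrays, exact sign-flip p = 0.5, the smallest possible). The difference between the sets had 1 sign in both groups. Both arrays read the same regions, and the C signals of the distal regions correlated between them with Pearson's r = 0.989. The SD between arrays therefore does not measure the variation among regions or chromosomes, and the difference is not judged against it. Regions farther than 20 Mb from the distal probe were dimmer than both sets, with median C signals of 1521 and 884. The sets overlapped widely: the quartiles of the distal C signals on array 1 were 341 and 7457, and those of the comparison regions 465 and 8672. Of the distal regions 26.5% (91) lay below the lower quartile of C signal over all regions, against 20.6% of the comparison regions, and 24.7% (85) above the upper quartile, against 29.3%.

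Chromosomes 4 and 11 differed from most others in this comparison. Their distal regions were bright, with median C signals of 3636 and 2710 on chromosome 4 and 3664 and 2400 on chromosome 11. Their comparison regions had 3786 and 2586 (chromosome 4) and 3363 and 2336 (chromosome 11), so that the sets differed there by at most 0.12 on the log2 scale in C. With both chromosomes left out, a step added after seeing the data, the 204 other distal regions had median C signals of 633 and 381 against 2242 and 1439, a log2 difference of -1.87 in C and -1.83 in SL. The mean of the differences taken within each chromosome was -1.44 in C and -1.47 in SL. The median of the distal regions was below that of the comparison regions in all 4 channels on 12 of 17 chromosomes, above it in all 4 on 3 (chromosomes 1, 6 and 9) and mixed on chromosomes 4 and 11. Among the 12 chromosomes with at least 10 distal regions the counts were 8 lower and 2 higher.

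**Figure D1:**
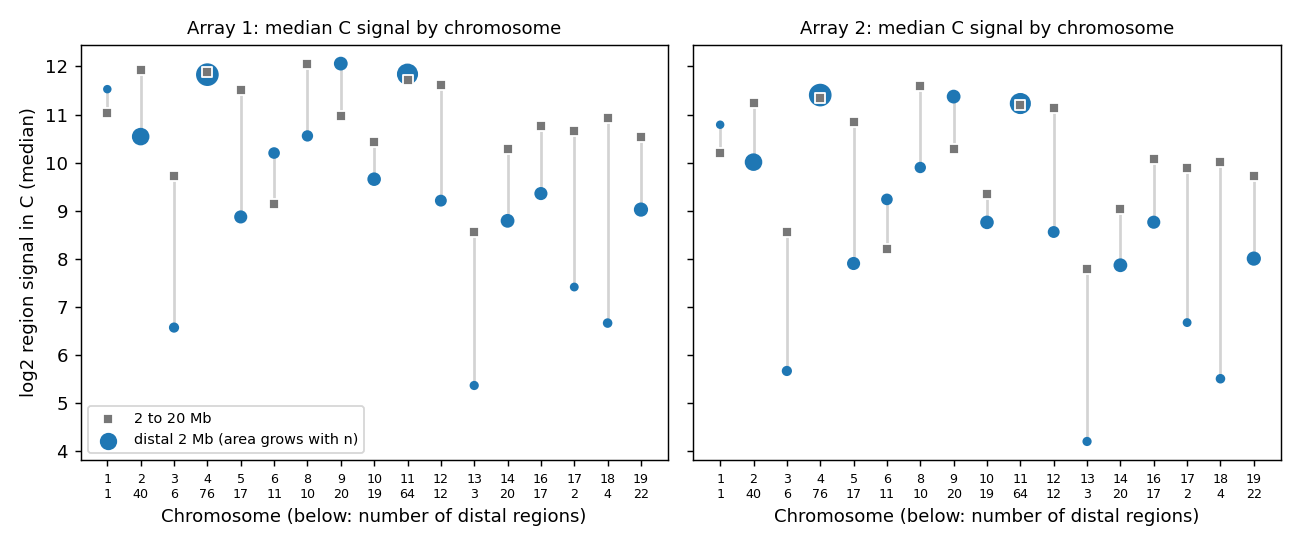
Median log2 signal in C for each chromosome on array 1 (left) and array 2 (right); circles are the distal 2 Mb with an area that grows with the number of regions printed under the chromosome, squares are regions 2 to 20 Mb inward. The circles of chromosomes 4 and 11 sit on their squares, those of 12 chromosomes lie below, and those of chromosomes 1, 6 and 9 lie above.

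Chromosome 18 had the widest gap in C, with median C signals of 102 and 45.6 in 4 distal regions against 1943 and 1033 in 181 comparison regions. Chromosome 13 had 41.3 and 18.5 in 3 distal regions, chromosome 3 had 95.2 and 51.0 in 6, and chromosome 17 had 171 and 102 in 2. These 4 chromosomes have few distal regions, and many of theirs are dim: 5 of 6 on chromosome 3, 3 of 3 on chromosome 13 and 3 of 4 on chromosome 18 lay below the lower quartile of all regions. The gap also held where distal regions were more numerous. Chromosome 5 had C signals of 469 and 240 in 17 distal regions against 2898 and 1842 in 355 comparison regions, and chromosome 12 had 592 and 377 in 12 against 3127 and 2238 in 289. On chromosome 2 the 40 distal regions had 1490 and 1032, against 3879 and 2402. Chromosome 9 was the opposite case, with 4263 and 2651 in its 20 distal regions against 1999 and 1240.

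The low signal relative to the comparison regions was deepest in the outermost stretch. The 61 regions within 0.5 Mb of the distal probe had median C signals of 537 and 301 and SL signals of 403 and 311, while the 283 distal regions from 0.5 to 2 Mb had C signals of 2280 and 1443. Of the outermost regions 45.9% (28) were below the lower quartile of all regions, against 22.3% of those from 0.5 to 2 Mb. From 0.5 to 1 Mb the C medians were 2292 and 1293, from 1 to 1.5 Mb 1157 and 829, and from 1.5 to 2 Mb 2474 and 1841. Chromosomes 4 and 11 held between 26.2% and 55.9% of the regions of these classes. Without them the C medians were 291 and 165 within 0.5 Mb, 2303 and 1293 from 0.5 to 1 Mb, 536 and 250 from 1 to 1.5 Mb, and 1172 and 728 from 1.5 to 2 Mb, so the order of the classes beyond 0.5 Mb shifted with these chromosomes while the outermost class was still the lowest. Farther inward C signal reached its highest medians at 5 to 10 Mb (3234 and 2181) and was lower again at 15 to 20 Mb (1902 and 1118). The cut at 0.5 Mb was set after the values were seen. Within chromosomes the outermost regions were dimmer than the remaining distal ones in all 4 channels on 12 of 16 chromosomes that have both. They were brighter in all 4 on chromosomes 4, 10, 16 and 17. The outermost set was only 1 region on chromosomes 10, 13, 14, 17 and 18, and on chromosome 17 it was set against 1 other. The 4 channels read the same regions, so their shared direction adds little to this count. On chromosome 6 the C medians were 182 and 86.3 in 4 outermost regions against 2055 and 1443 in the other 7. On chromosome 8 they were 390 and 223 in 2 against 4165 and 3113 in 8. Probes in the outermost regions were also above background less often, 89.0% to 91.3% per channel. The part of probe sequence or fragment length in this was not tested.

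**Figure D2:**
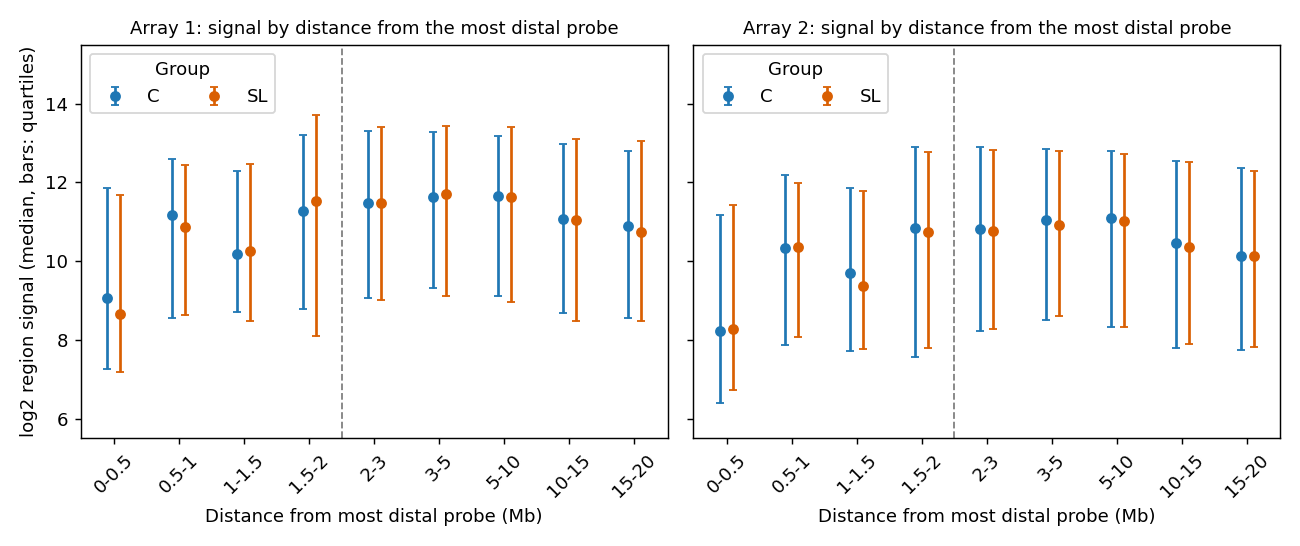
Median log2 signal (points) with quartiles (bars) in C and SL by distance from the most distal probe of the chromosome, for array 1 (left) and array 2 (right); the dashed line marks the 2 Mb limit of the distal regions. The first class, 61 regions within 0.5 Mb, lies lowest in every channel in both groups.

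The most distal region of each chromosome shows how far chromosome ends differ in signal. On chromosome 2 it lay at 181882493 to 181883033, 0.496 kb from the distal probe. Its signals were 28672 (SL) and 14337 (C) on array 1, then 12882 and 14521 on array 2, the brightest of the 17. On chromosome 6, at 149322306 to 149322926, they were 18713 and 12305, then 9319 and 10993. Chromosomes 10, 19 and 4 followed, between the median and the upper quartile of all regions, with C signals of 6888, 5573 and 5644 on array 1. The most distal regions of chromosomes 11, 13 and 18 were the dimmest. On chromosome 11, at 121664479 to 121665178, the signals were 8.41 (SL) and 13.7 (C) on array 1, then 11.1 and 6.94, and none of its 3 probes stood above background in any channel. On chromosome 13, at 120540674 to 120541079, they were 12.1 and 17.05, then 10.6 and 6.73, with 1 of 3 probes above background in each group on array 1 and 0 on array 2. Among chromosome ends signal thus spanned from background to above 91.7% of all regions in C. All started at most 1.19 kb from the last probe because they were picked as nearest to it, and distance to the telomere was not measured. Mean probe length was 60, 60 and 59 bases at the ends of chromosomes 11, 13 and 18, and 47.25 at those of chromosomes 2 and 6. The ends of chromosomes 8, 9 and 17, dimmer than these last, had 45, and the part of probe length was not tested. The end of chromosome 11 was at background while its 64 distal regions as a whole were bright.

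The 5 brightest distal regions in C all lay on chromosomes 4 and 11. The first was chromosome 11 at 120962019 to 120962519, with 53828 (SL) and 23724 (C) on array 1, then 22810 and 28731 on array 2. The next was chromosome 4 at 153891290 to 153891768, with 26078 and 29725, then 19983 and 22628. Each was brighter in C than 99.2% of all regions. The dimmest in C was chromosome 16 at 96526392 to 96526660, with 10.2 and 10.8 on array 1 and 6.69 and 4.24 on array 2, none of its 2 probes being above background. In 7 distal regions no probe was above background in either group on either array, and these have no ratio that can be read; in 1 further region this held for SL alone.

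Neighbouring distal regions were in places alike. Runs of at least 3 adjacent distal regions above the upper quartile of C signal occurred on chromosomes 4, 9 and 11. The longest was 5 regions on chromosome 4 from 153317290 to 153425755, with C signals of 10328 to 19385 on array 1 and 10159 to 20123 on array 2. Chromosome 11 held a run of 4 from 120061006 to 120077240, with median C signals of 14971 and 10806, and another 4 from 120087604 to 120103222, with 13300 and 12389. Dim runs, below the lower quartile, occurred on chromosomes 3, 4, 6, 9, 13, 14 and 19. The longest dim run was 5 of the 6 distal regions of chromosome 3, from 157881971 to 159288081. Its C signals were 19.4 to 328 on array 1 and 6.001 to 168 on array 2. Regions of a run could still differ widely, as on chromosome 9 with 215 to 1827 in C on array 1. The distal region with the most probes, 24, on chromosome 11 at 120050397 to 120053762, was itself dim at 259 and 148 in C although it lay beside these bright runs. Chromosome 19 at 60944441 to 60947148, with 20 probes, had 242 and 131, and chromosome 5 at 150860989 to 150863804, also with 20 probes, had 1157 and 736. Runs were listed by a rule set after the signals were seen, and regions that share a fragment are not independent. No count of runs among the comparison regions is given, so whether runs are more frequent distally was not tested.

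Ratios of SL over C were centred near 0 in the distal regions and spread widely around it on array 1. Across the distal regions the SL and C signals on the log2 scale correlated with Pearson's r = 0.978 on array 1 and 0.995 on array 2, and the C signals of the arrays with r = 0.989, over 344 regions that share the same libraries and span a wide range of signal. The log2 ratio of SL over C was centred on the median of all probes of an array. Its median over the distal regions was 0.05 on array 1 and -0.02 on array 2, and over the comparison regions 0.00 and -0.03. The distal regions thus stood higher, by 0.05 (array 1) and 0.02 (array 2), on average 0.03 ± 0.02 (SD, n = 2 arrays, exact sign-flip p = 0.5, the smallest possible), a factor of 1.02. Set as Cy5 over Cy3, which turns the sign of array 2, the mean difference was 0.02 ± 0.05. Array 1 turned below 0 without chromosome 4 (-0.0053), without chromosomes 4 and 11 (-0.03) and within 1 Mb (-0.07) or 0.5 Mb (-0.14) of the distal probe, while array 2 stayed above 0. The mean of the differences taken within chromosomes was -0.012, so its direction rested on how chromosomes were weighted. The difference within a chromosome kept its sign from array 1 to array 2 on 3 of 17 chromosomes.

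The spread of the ratios was that of other regions. The SD over distal regions was 0.66 on array 1 and 0.34 on array 2, against 0.64 and 0.35 in the comparison regions and 0.67 and 0.35 over all. On array 1, 48 distal regions (14.0%) were lower in SL past 1.5-fold, where 14.9% of all regions were. Higher were 67 (19.5%), where 13.6% of all were. The comparison regions had 12.6% and 16.5%. Without chromosomes 4 and 11, a step added after seeing the data, 22 distal regions (10.78%) were higher, against 15.47% of the comparison regions. Lower were 38 (18.63%), against 13.75%. Over all signal levels together, the larger share of higher distal regions on array 1 thus depended on chromosomes 4 and 11. It did not in the 2 brightest quintiles of all regions by mean signal, a grouping made after seeing the values. There 21 of 53 distal regions off these chromosomes (39.6%) were higher, against 29.6% of 1291 comparison regions. In the 2 dimmest quintiles, over all 17 chromosomes, 0.70% of 143 distal and 1.94% of 1341 comparison regions were higher. On array 2, 3 distal regions (0.87%) were lower past 1.5-fold, where 0.449% of all were, and 15 (4.36%) were higher, where 5.62% of all were. As SL over C, array 1 and array 2 ran against each other, with r = -0.48 and Spearman's rho = -0.46 over the distal regions and r = -0.48 over the comparison regions. As Cy5 over Cy3 these correlations have the same size with the opposite sign. The sign of the ratio agreed between arrays in 113 of 344 distal regions (32.8%), 54 lower and 59 higher in SL, against 35.7% of the comparison regions and 37.3% of all.

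**Figure D3:**
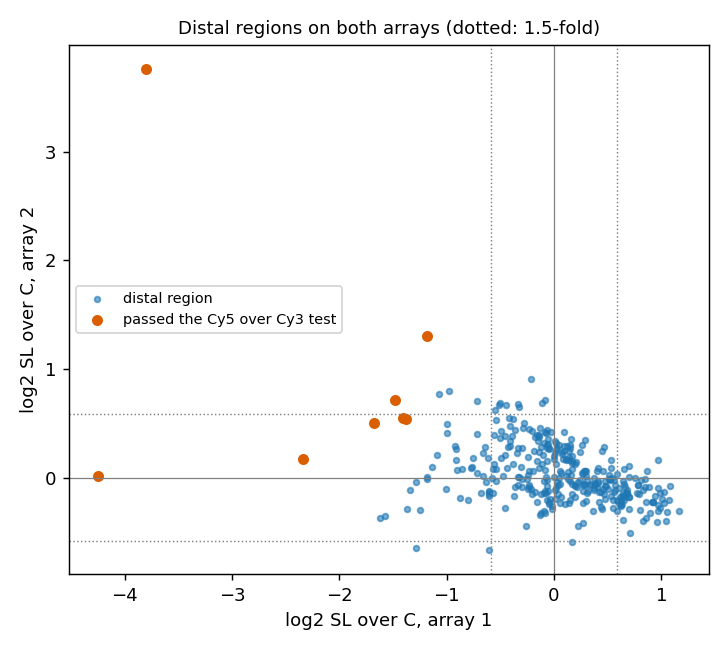
Log2 SL over C on array 1 (horizontal) and array 2 (vertical) for the 344 distal regions, with dotted lines at 1.5-fold; orange points passed the test of Cy5 over Cy3. The cloud slopes downward, 2 regions lie past 1.5-fold below zero on both arrays, none lies past it above zero on both, and 1 point at the upper left is a region at -3.81 and 3.76.

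The ratio moved with signal, in opposite directions on the arrays. In the dimmest quintile of all regions by mean signal, 74 distal regions had a median log2 SL over C of -0.21 on array 1 and 0.30 on array 2, close to -0.27 and 0.28 in the comparison regions. In the brightest quintile, 73 distal regions had 0.62 and -0.14, against 0.38 and -0.13. The ratio on array 1 was therefore higher in bright distal regions than in comparison regions of the same quintile, while array 2 showed nearly equal values. The quintiles rank the mean signal over all 4 channels, SL on array 1 among them. Regions of a quintile were not matched for brightness. Over the 2 brightest quintiles together the medians were 0.53 for 130 distal and 0.26 for 1783 comparison regions on array 1, and -0.10 against -0.11 on array 2. Off chromosomes 4 and 11 the array 1 values were 0.37 for 53 distal and 0.18 for 1291 comparison regions, and on them 0.57 for 77 and 0.39 for 492. This grouping of quintiles was made after seeing the values. With the difference taken within quintiles it was 0.099 on array 1 and 0.0095 on array 2, so the mean over the arrays, 0.05, came mostly from array 1.

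**Figure D4:**
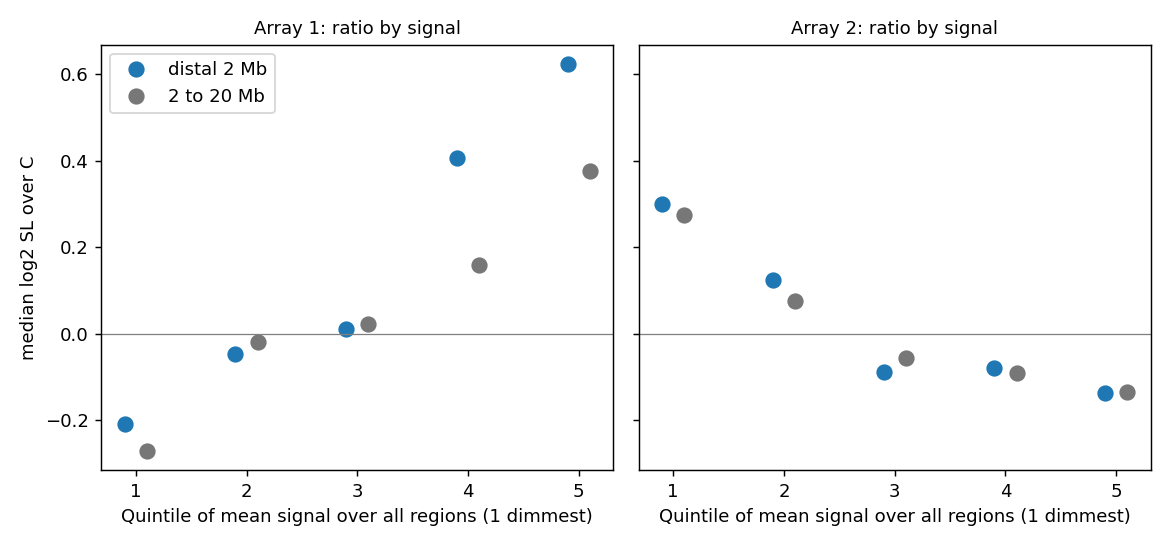
Median log2 SL over C by quintile of mean signal over all regions on array 1 (left) and array 2 (right), for the distal 2 Mb and for regions 2 to 20 Mb inward. On array 1 the medians climb with signal, to 0.62 in distal and 0.38 in comparison regions, and on array 2 they decline from 0.30 and 0.28 to below zero.

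No distal region passed the test of SL against C. The fit with limma over all 19365 regions called 0 of 344 distal regions at a Benjamini-Hochberg adjusted p under 0.05, and 0.0% of all regions. The lowest adjusted p (limma) was 0.9996 in the distal regions. Unadjusted limma p was under 0.05 for 5 distal regions (1.45%), against 278 of all regions (1.44%). With moderation that follows the signal, limma called 3 distal regions lower in SL, at chromosomes 2 (181265446), 11 (120056111) and 6 (148066525). The first and the second lay at 0.02 and 0.17 on array 2, so that array 1 alone carried their difference. The share of all regions called by this fit is not given here, so these 3 cannot be set against it. The standard error of a distal region's mean ratio had a median of 0.34. In the main fit a mean log2 ratio of -2.12 on chromosome 2 at 181265446 had an adjusted p (limma) of 0.9996, although the fit that follows the signal called it. This mean averages -4.25 on array 1 and 0.02 on array 2, so the arrays did not share the difference.

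By measured ratio 2 distal regions were lower in SL past 1.5-fold on both arrays (0.58% of 344, with 0.201% among all regions), each with every probe in that direction, and 1 of them had SL at background. The region on chromosome 14 at 121611360 to 121611812 had signals of 359 (SL) and 540 (C) on array 1, then 218 and 354, all 4 probes being above background in every channel. C was the brighter channel on both arrays. Arrays 1 and 2 gave log2 ratios of -0.60 and -0.67, averaging -0.64 ± 0.33 (SE, n = 2), and unadjusted limma p was 0.080. The region on chromosome 17 at 93505566 to 93506210 had 34.9 and 84.2 on array 1 and 27.7 and 44.3 on array 2. Its 3 probes were above background in C on both arrays, and 0 of 3 were in SL. The measured log2 ratio was -1.29 and -0.65. The lowest signal well above background in the SL channel was 32.0 on array 1 and 33.7 on array 2. With SL set to that level on array 2, the log2 ratio of C over SL was 0.37, which does not reach 1.5-fold. On array 1 the SL signal of 34.9 already lay above that level although no probe was above background. The array 1 ratio is thus only the measured one, and no lowest fold is given for this region. Neither region passed after normexp background correction, which left 0 distal regions past 1.5-fold on both arrays.

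Below 1.5-fold on array 2, a pair of chromosome 6 regions were next by the smaller ratio. At 148440932 to 148441281 the signals were 7656 (SL) and 23369 (C) on array 1, then 9647 and 12696, with log2 ratios of -1.62 and -0.37. At 148066525 to 148067190 they were 207 and 612, then 296 and 387, with -1.58 and -0.36. In both regions all 4 probes were lower in SL on both arrays and above background in every channel, and array 1 lay farther from zero. Their C signals lay above 94.6% and 35.3% of all regions.

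No distal region was higher in SL past 1.5-fold on both arrays, where 0.0207% of all regions were. The 4 with the highest smaller ratio were all higher in every probe on both arrays, but by little. Chromosome 2 at 181388248 to 181388475 had signals of 229 (SL) and 186 (C) on array 1, then 127 and 102, with log2 ratios of 0.29 and 0.34. Chromosome 4 at 153998937 to 153999127 had 18123 and 12991, then 12397 and 10409, with 0.47 and 0.28. Chromosome 12 at 119293235 to 119293592 had 351 and 291, then 189 and 156, with 0.26 and 0.30. Chromosome 10 at 128151130 to 128151506 had 199 and 145, then 87.7 and 75.4, with 0.45 and 0.24. SL was brighter in all 4 on both arrays, yet their mean ratios of 0.28 to 0.37 are of about the size of the standard error, 0.33. The naming rule picks regions whose arrays share a sign, so that sharing is no support.

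The limma test of Cy5 over Cy3 called 8 distal regions (2.33%), all with Cy3 above Cy5, where 2.93% of all regions passed; among the comparison regions 2.21% did. With 2 arrays the fit gave every region 1 common standard error of 0.30 for this ratio, so a region's own disagreement between arrays does not enter its p. Of the 8 called regions 2 (chromosome 19 at 59932206 and chromosome 4 at 153488021) had 0 probes above background in any channel and have no ratio that can be read. In opposite directions past 1.5-fold were 6 distal regions (1.74%) with Cy3 above Cy5, where 3.48% of all regions were, and 0 with Cy5 above Cy3, where 0.0878% were. The clearest was chromosome 9 at 121576883 to 121577191. Its signals were 132 (SL) and 1827 (C) on array 1, then 417 and 31.3 on array 2, so the Cy3 channel was the bright one each time. The log2 ratio of SL over C was -3.81 and 3.76, averaging -0.02, and of Cy5 over Cy3 -3.78 on average. In 4 of the other 5 no probe was above background in any channel, so they hold no readable ratio. In the last, on chromosome 19 at 60988698, 2 of 3 probes were above background in the Cy3 channel and 0 in the Cy5 channel of each array.

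Of the 8 called regions 5 were within 1.5-fold on array 2, so that their difference came mostly from array 1. On chromosome 2 at 181265446 to 181265791 the signals were 892 (SL) and 16796 (C) on array 1, then 9922 and 10004 on array 2. The SL signal of array 1 stood apart from the other 3 signals. The log2 ratio was -4.25 on array 1, with all 4 probes between -5.23 and -2.99, and 0.02 on array 2. Its call for Cy5 over Cy3 thus rests on the value of array 1 alone. On chromosome 11 at 120056111 to 120056448 the signals were 440 and 2201, then 1733 and 1566, with log2 ratios of -2.33 and 0.17. Over 4-fold lower in SL on array 1 were 3 distal regions (0.87%), those on chromosomes 2, 9 and 11 just given, against 1.42% of the comparison regions and 1.79% of all. The remaining called regions with probes above background were chromosome 16 at 96292882, chromosome 4 at 153812739 and the chromosome 19 region at 60988698 given above. The first had signals of 153 (SL) and 485 (C) on array 1, then 157 and 113, and the second 70.6 and 185, then 51.8 and 36.1. No value on array 2 repeats the chromosome 2 and chromosome 11 differences, and whether pool, dye or hybridisation goes with them cannot be told apart.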

How the data were processed

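Genomic DNA of pooled hypothalami from SL and C mice was measured on 2 two-colour arrays. Per the file headers the authors extracted spot intensity with Agilent Feature Extraction 10.5.1.1, where version 9.1.3.1 stands in the submitters' processing notes. The deposited processed intensity of each channel is background-subtracted and dye-normalised. Per the file headers, array 1 was also detrended multiplicatively and array 2 was not. The authors also deposited log10 ratios of Cy5 over Cy3 and a value table, which equals them with array 2 turned to SL over C within 0.005 on the log10 scale, so its scale and direction are known.

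Of 90535 genomic spots, 44 with a feature outlier flag on either array were left out. Repeated spots were averaged. Log2 ratios of processed signals, as SL over C, had each array's median subtracted, without loess. Probe starts at most 500 bp apart formed 23058 groups, of which 3693 held 1 probe and were left out. A region's value is the mean over its probes on the log2 scale. No filter on dim probes was applied, as the rule for the distal regions sets none; it was run as an alternative. All regions were fitted together in limma 3.58.1 under R 4.3.3 (an intercept in lmFit followed by two-sided eBayes tests, adjusted over 19365 regions by Benjamini-Hochberg). The fit was also run on simulated data, in which large changes were recovered and more regions were called wrongly than the threshold allows. The simulated arrays were independent with equal spread, whereas the real ones ran against each other and differed in spread. The simulation therefore cannot show how the fit performs on these arrays. The precision is limited by the number of arrays. Raw mean signals are not used here: the normexp alternative (offset 50) used the median spot and background signals. Text coordinates are on mm8, and no gene names or sequences of that build were used here. Named were those past 1.5-fold in a shared direction on array 1 and array 2 (filled to 4 per direction by the smaller ratio), the 5 brightest and 5 dimmest in C, the 4 with the largest smaller dye ratio, the most distal of each chromosome as a range, the 3 with most probes and every called one; the clearest of these are given in full. The members and lists were chosen with earlier results of these data known.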

Additional observations from a re-analysis of the deposited data

How the results depend on the processing

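The precision is limited by 2 arrays, by probes near background and by the uneven number of regions per chromosome. Leaving out chromosomes 4 and 11 or each chromosome in turn, the 0.5 Mb window and scaling the arrays to a common spread were added after seeing the data. The difference of signal between distal and comparison regions stayed below 0 under every setting run, for SL and C. In this order it was, on the log2 scale, -0.52 and -0.48 with at least 3 probes, -0.66 and -0.64 with a 1 kb gap, -0.40 and -0.32 with medians over probes, -0.44 and -0.34 with normexp, -1.49 and -1.41 with a 1 Mb window, -0.21 and -0.23 with 3 Mb, -0.77 and -0.67 against regions 2 to 10 Mb inward, -1.47 and -1.44 as the mean over chromosomes, -0.57 and -0.59 within classes of probe count, -1.83 and -1.87 without chromosomes 4 and 11, -2.53 and -2.38 with 0.5 Mb, and from -1.21 to -0.35 and from -1.09 to -0.23 with each chromosome left out. With the filter on dim probes the SL value was -0.41. Leaving out 1 array gave -0.49 to -0.45 in SL and -0.37 to -0.36 in C. The shift of log2 SL over C, 0.03, became -0.012 as the mean over chromosomes, lay at 0.02 to 0.05 with 1 array left out, and as a mean over arrays moved by less than their spread under the other settings run; array 1 alone turned below 0 with the 1 Mb (-0.07) and 0.5 Mb (-0.14) windows, without chromosomes 4 and 11 (-0.03) and without chromosome 4 (-0.0053). The 0 distal regions called for SL over C became 3 with the trend on signal. The 8 called for Cy5 over Cy3 became 4 with normexp, with loess and at an adjusted p under 0.01 (limma), 2 of 105 with the 1 Mb window, 13 of 566 with 3 Mb, and 13 of 344 with the trend. The count past 1.5-fold in a shared direction, 2, became 1 with the 1 kb gap and with loess, 0 with normexp, with the 1 Mb window and at 2-fold, and 4 at a looser fold; with 1 array left out 18 to 115 were past 1.5-fold on the other. Shares over all regions are not given for the counts under these settings, so the counts cannot be set against them. For all of these results, the cause was not tested.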
